A study of Mus musculus with 9 samples.

Results

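The genes described here encode the building blocks of perineuronal nets: the lecticans Acan, Bcan, Ncan and Vcan, the link proteins Hapln1, Hapln2 and Hapln4, the crosslinking glycoprotein Tnr and the hyaluronan synthase Has3. They were taken by name, and all 9 were among the 21457 features of a count matrix from 16042 cholinergic nuclei of the mouse spinal cord. The nuclei came from 12 adult mice aged 8 weeks, heterozygous for both transgenic alleles (Chat-iCre:+/wt with SUN-SfGFP:+/wt) in the strain Chat-IRES-Cre::Sun1-sfGFP. In these mice a Cre driven from the Chat locus switches on a fluorescent nuclear envelope protein in any cell that has used Chat, at any age, and all nuclei carried both alleles. Cords were cut into cervical, thoracic and lumbar/sacral parts, and matching parts of 4 mice were pooled: 2 males with 2 females in replicate 1, 4 males in replicate 2 and 4 females in replicate 3, which gave 9 libraries. There was no treatment and no other genotype, so the comparisons are between cell groups and cord regions. The study's annotation places the nuclei in 21 clusters: 3 of skeletal motor neurons (S1, S2 and S3), 10 of visceral motor neurons (V1 to V10) and 8 of interneurons (I1 to I8). The study names S2 as alpha motor neurons, which drive force-producing muscle fibres, S3 as gamma motor neurons, which set the tension of muscle spindles, and S1 as a Type 3 skeletal motor neuron.

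A perineuronal net is a lattice of extracellular matrix that wraps the soma and proximal dendrites of certain neurons. Hyaluronan made at the cell surface by synthases such as Has3 forms its backbone, the lectican proteoglycans bind that backbone through their amino-terminal ends, the link proteins of the Hapln family lock the bond, and Tnr crosslinks lecticans at their other ends. Nets are known around many large motor neurons of the ventral horn, and Acan is the component most often used to mark them. Neurons and glia both make these proteins, so what follows concerns only the transcripts inside sorted cholinergic nuclei.

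Several of these genes lie beside one another in the mouse genome (GRCm38). Acan (ENSMUSG00000030607, chr7:79053483-79115099, plus strand) and the link protein gene Hapln3 (ENSMUSG00000030606, chr7:79115102-79131018, minus strand) converge, with 2 bases between their annotated 3′ ends. Hapln2 (chr3:88021750-88027583, minus strand) lies 21.5 kb from Bcan (chr3:87987531-88000230, minus strand), Hapln4 (chr8:70083457-70090862, plus strand) lies 2.22 kb from Ncan (chr8:70093085-70120873, minus strand), and Hapln1 (chr13:89539796-89611652, plus strand) lies 43.7 kb from Vcan (chr13:89655312-89742509, minus strand). Tnr (chr1:159523769-159931729, plus strand) is the longest of the 9 genes at 408 kb, and Has3 (chr8:106870242-106884566, plus strand) spans 14.3 kb. Hapln3 was not among the 9 listed genes. It is described beside Acan because it is the neighbouring link protein gene, and was singled out after its values were seen.

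The 250 bases before the RefSeq start are shown for 4 genes on the coding strand: Acan and Hapln3, neighbours that were both highest in S2, Bcan, which was highest in S1, and Tnr, which was read in nearly every skeletal nucleus. Windows on GRCm38.p6 were chr7:79052976-79053225 (plus) for Acan, chr7:79131019-79131268 (minus) for Hapln3, chr3:88000357-88000606 (minus) for Bcan and chr1:159523519-159523768 (plus) for Tnr. Capitals mark 3 promoter motifs searched on both strands, which were TATAAA for the box named after its opening letters, then GGGCGG for the GC box, and CCAAT for the box of that name.
Acan: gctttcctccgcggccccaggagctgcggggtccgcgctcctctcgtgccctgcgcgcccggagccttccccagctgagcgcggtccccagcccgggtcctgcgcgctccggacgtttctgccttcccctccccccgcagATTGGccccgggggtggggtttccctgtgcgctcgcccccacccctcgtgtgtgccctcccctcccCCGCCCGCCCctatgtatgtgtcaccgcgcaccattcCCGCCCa
Hapln3: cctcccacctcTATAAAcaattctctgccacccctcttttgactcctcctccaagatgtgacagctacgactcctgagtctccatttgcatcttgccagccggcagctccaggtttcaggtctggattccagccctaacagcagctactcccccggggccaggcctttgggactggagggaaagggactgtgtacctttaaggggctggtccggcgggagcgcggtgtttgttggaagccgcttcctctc
Bcan: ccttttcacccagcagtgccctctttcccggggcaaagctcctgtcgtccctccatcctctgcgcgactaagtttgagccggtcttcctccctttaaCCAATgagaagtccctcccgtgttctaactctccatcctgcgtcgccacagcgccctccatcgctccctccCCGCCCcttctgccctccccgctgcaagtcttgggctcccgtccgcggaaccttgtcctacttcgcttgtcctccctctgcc
Tnr: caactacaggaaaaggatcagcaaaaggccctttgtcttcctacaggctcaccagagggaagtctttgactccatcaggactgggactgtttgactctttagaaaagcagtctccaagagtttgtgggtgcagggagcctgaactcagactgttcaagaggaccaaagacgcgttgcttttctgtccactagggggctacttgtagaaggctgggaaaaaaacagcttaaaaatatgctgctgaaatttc

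The Acan window had 74.4% G and C, against a median of 52.4% over the 32851 promoter windows of the RefSeq table, with 3 GC boxes (GGGCGG), 2 of which overlap, and 1 CCAAT box, all on the other strand. The Hapln3 window had 58% G and C with a TATA box 239 bases before the start and neither other motif. The Bcan window had 62% G and C with 1 CCAAT box and 1 GC box, and the Tnr window had 46.8% and none of the 3 motifs. Of all windows of that length, 12.4% held the TATA box, 33.8% the CCAAT box and 32.7% the GC box, so each of these motifs is common. Hapln4 and Has3 had no entry in that table.

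Before the member values, 2 libraries need care. In skeletal nuclei Hoxa9, a gene of the thoracic and lumbar cord, stood at 0 to 0.145 CPM (corrected counts scaled to a total of 1000000) in cervical replicates 1 and 3 but at 9.04 CPM in the library labelled cervical replicate 2, while it stood at 11.9 and 15.8 CPM in thoracic replicates 1 and 3 but at 0.629 CPM in the library labelled thoracic replicate 2. These libraries therefore go against their region labels and are named by label throughout. The 71 S2 nuclei of the library labelled cervical replicate 2 also stood apart in identity: the skeletal markers Tns1 and Prph summed to 107 CPM, against a mean of 525 CPM over the 9 libraries, while the visceral markers Zeb2 and Fbn2 summed to 205 CPM and the interneuron markers Pax2 and Mpped2 to 133 CPM. The alpha markers Rbfox3, Stk32a, Sv2b and Glis3 summed to 501 CPM in these nuclei, the lowest of S2 but above all S1 and S3 libraries (at most 102 and 128 CPM). Rbfox3 (200 CPM) and Sv2b (187 CPM) lay within the range of the other S2 libraries, and Stk32a (101 CPM) and Glis3 (12.8 CPM) below it. For the S2 levels and differences of the tested genes, values without the library labelled cervical replicate 2 follow where they moved by much. Median totals per nucleus ranged from 4712 to 16127 corrected counts across libraries, 33 barcodes occurred in more than 1 library, and S2 held 1285 nuclei (26 to 395 a library), S1 1528 and S3 2241. The 4 alpha markers Rbfox3, Stk32a, Sv2b and Glis3 summed to a mean of 1030 CPM in S2 against 66.5 CPM in S1 and 89.3 CPM in S3. The study picked Stk32a, Sv2b and Glis3 from these same nuclei, so that sum cannot check the names. Rbfox3, known before, averaged 35.8, 229 and 64.3 CPM in S1, S2 and S3. The gamma markers known before set S3 apart less, Esrrg at 1931, 1004 and 2056 CPM and Gfra1 at 381, 488 and 742 CPM in that order. Clusters were drawn by the study from these same nuclei, so p-values between clusters measure the spread over libraries and are not an independent test of the groups. Libraries of the same replicate number came from the same mice, so these p-values do not measure the spread over mice. A level below is the CPM of a gene in the summed nuclei of a cluster in 1 library. Levels were not compared between genes, since longer pre-mRNAs yield more nuclear reads.

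Acan encodes aggrecan, the large lectican that carries most chondroitin sulfate chains. Its S2 levels were 21.8, 3.93 and 23.6 CPM in cervical replicates 1, 2 and 3, 23.8, 9.27 and 8.80 CPM in the thoracic libraries and 14.5, 9.54 and 22.0 CPM in the lumbar/sacral libraries. Every S2 value other than that of the library labelled cervical replicate 2 was at least 8.80 CPM, whereas S1 ran from 0 to 5.68 CPM (median 3.65) and S3 from 3.22 to 9.0 CPM (median 4.16). The mean was 15.2 ± 7.67 CPM in S2 (SD, n = 9), 3.56 ± 1.92 CPM in S1 and 4.59 ± 1.84 CPM in S3, and within libraries S2 was above S1 in 8 of 9 and above S3 in 9 of 9. The ranges of S2 and S1 overlapped only through the library labelled cervical replicate 2, without which the S2 mean was 16.7 ± 6.83 CPM (n = 8).

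A model with library as a term was fitted by limma to log2(CPM + 5) over 11465 genes, and a gene was called at a Benjamini-Hochberg adjusted p under 0.05 with a log2 difference of at least 1 either way. Acan was called higher in S2 than in S1, with a log2 difference of 1.17 (SE 0.199, limma adjusted p = 5.18e-05). Against S3 its difference was 0.99 (SE 0.199, limma adjusted p = 0.000282), just under the required size, and 1.10 (limma adjusted p = 1.21e-05), a call, without the library labelled cervical replicate 2. S1 and S3 differed by -0.18 (limma adjusted p = 0.67). Acan entered the fit through its S2 sums alone, since no S1 or S3 sum reached the minimum of 10 CPM, and with no such minimum the S2 to S1 difference kept its call (limma adjusted p = 0.000269). Acan fell below the minimum without the 3 replicate 1 libraries and then gave no value.

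**Figure D1:**
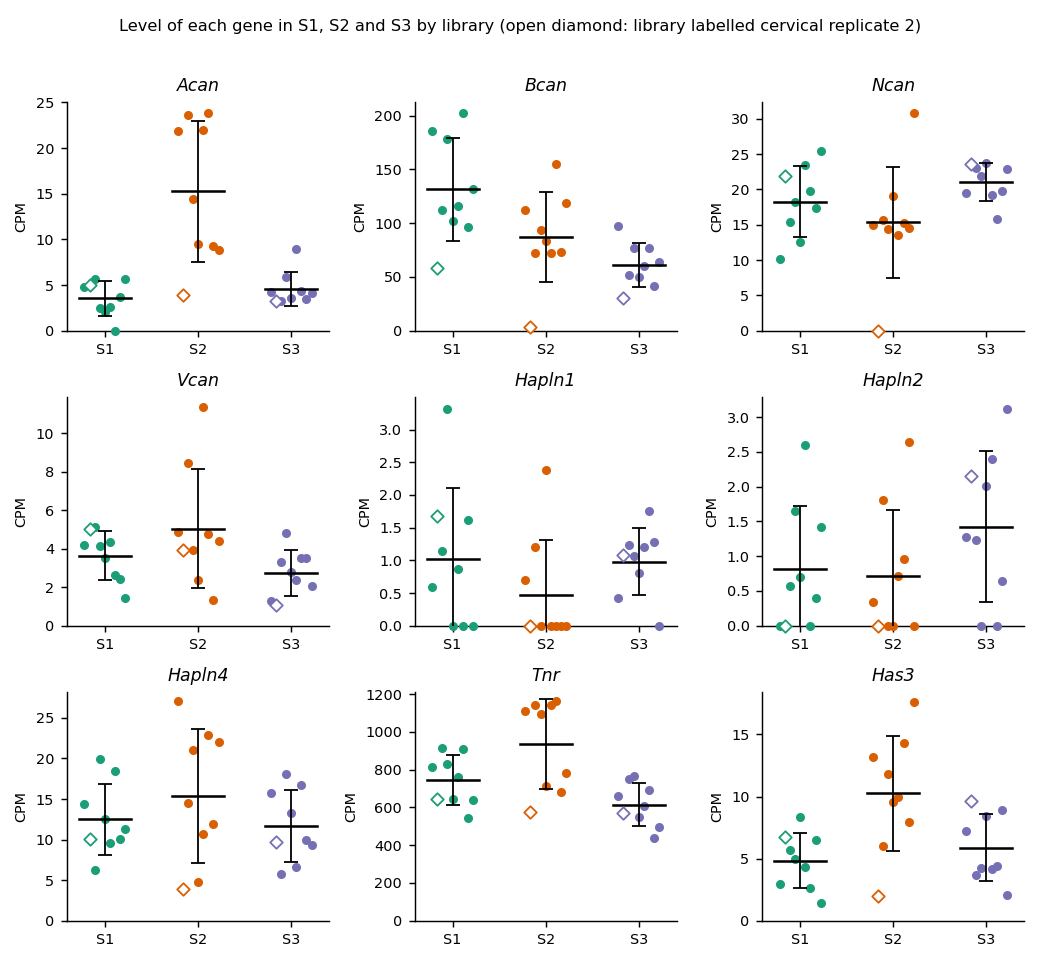
Levels of the 9 perineuronal net genes in S1, S2 and S3, as CPM of the summed corrected counts of each cluster in each of the 9 libraries, on linear axes from 0. Each point is 1 library, open diamonds mark the library labelled cervical replicate 2, horizontal lines show the mean and error bars the SD (cut at 0). Acan has its highest mean in S2 (15.2 CPM) and Bcan in S1 (131.6 CPM).

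Bcan encodes brevican, a lectican of the central nervous system. It had the order S1 above S2 above S3. Its S1 levels were 186, 58.8 and 113 CPM in cervical replicates 1 to 3, 203, 96.1 and 132 CPM in thoracic and 178, 102 and 116 CPM in lumbar/sacral libraries, a mean of 131.6 ± 47.7 CPM (SD, n = 9). Its S2 levels in the same order were 112, 3.93 and 71.9, then 155, 72.9 and 119, then 93.3, 83.5 and 72.4 CPM, a mean of 87.1 ± 41.7 CPM, or 97.5 ± 29.6 CPM without the library labelled cervical replicate 2. S3 averaged 61.0 ± 20.6 CPM, from 30.1 to 97.3 CPM. The ranges of the 3 clusters overlapped, yet within libraries S1 was above S2 and above S3 in 9 of 9, and S2 was above S3 in 8 of 9, the exception being the library labelled cervical replicate 2. S1 was called above S3, with a log2 difference of 1.03 (SE 0.197, limma adjusted p = 0.000227). S2 was below S1 by a log2 difference of -0.76 (SE 0.197, limma adjusted p = 0.00443), past the p threshold and short of the size, and by -0.50 (limma adjusted p = 2.85e-05) without that library. S2 against S3 gave 0.27 (limma adjusted p = 0.343), and 0.55 (limma adjusted p = 6.27e-06) without it.

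Ncan encodes neurocan, a lectican of the developing brain. In S2 it was at 0 CPM in the library labelled cervical replicate 2 and between 13.5 and 30.8 CPM in the others, a mean of 15.4 ± 7.85 CPM (SD, n = 9), with 18.2 ± 5.01 CPM in S1 and 21.1 ± 2.66 CPM in S3. S2 lay below S3 in 8 of 9 libraries, with a log2 difference of -0.49 (SE 0.218, limma adjusted p = 0.096), and the difference from S1 was -0.30 (SE 0.218, limma adjusted p = 0.367). Without the library at 0 these were -0.23 (limma adjusted p = 0.148) and -0.03 (limma adjusted p = 0.871), with an S2 mean of 17.3 ± 5.71 CPM. Vcan encodes versican, a lectican shared with many tissues outside the nervous system. It was low in every skeletal cluster, at 5.05 ± 3.07 CPM in S2, 3.64 ± 1.26 CPM in S1 and 2.75 ± 1.18 CPM in S3, and no skeletal cluster had enough sums at 10 CPM for it to be tested. With no minimum its S2 to S3 difference was 0.33 (limma adjusted p = 0.117).

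The link proteins bind hyaluronan and a lectican at once. Hapln4, known from nets of the brainstem and cerebellum, was the only listed link protein that reached the test. Its S2 levels were 27.0, 3.93 and 14.5 CPM in cervical replicates 1 to 3, 22.9, 11.9 and 22.0 CPM in thoracic and 21, 4.77 and 10.6 CPM in lumbar/sacral libraries. These spanned the S1 range of 6.25 to 19.9 CPM and the S3 range of 5.76 to 18.1 CPM at both ends. Means were 15.4 ± 8.26 CPM in S2 (SD, n = 9), 12.5 ± 4.38 CPM in S1 and 11.7 ± 4.45 CPM in S3, and the log2 differences of S2 from S1 and S3 were 0.14 and 0.21 (limma adjusted p = 0.639 and 0.401). They were 0.25 and 0.33 (limma adjusted p = 0.22 and 0.0857) without the library labelled cervical replicate 2, and 0.44 and 0.56 (limma adjusted p = 0.0164 and 0.00268) without all 3 replicate 2 libraries. Hapln1, a link protein of cartilage and brain nets, was found in 5 of 1285 S2 nuclei, 13 of 1528 S1 nuclei and 15 of 2241 S3 nuclei, with mean levels of 0.476, 1.02 and 0.982 CPM. Hapln2, known for its place at nodes of Ranvier, was found in 7 S2, 9 S1 and 22 S3 nuclei, with mean levels of 0.719, 0.816 and 1.43 CPM. At these counts a difference between skeletal clusters was not detectable for either gene.

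Hapln3, the link protein gene beside Acan, had a level in S2 in all 9 libraries, from 1.32 to 9.53 CPM (median 5.68), where S1 had 0 in 5 of 9 libraries and S3 had 0 in 8 of 9. The S2 mean was 5.81 ± 2.70 CPM (SD, n = 9) against 0.451 ± 0.651 CPM in S1 and 0.0447 ± 0.134 CPM in S3, and the ranges of S2 and S3 did not overlap. The S2 nuclei of the library labelled cervical replicate 2, which had the lowest Acan, Bcan and Hapln4 of S2, had 6.87 CPM of Hapln3, from 7 corrected counts in 2 of 71 nuclei. Hapln3 was below the minimum level of the main fit. With no minimum its log2 differences were 0.95 from S1 (limma adjusted p = 1.43e-06) and 1.06 from S3 (limma adjusted p = 1.77e-07), which passes the size only against S3 and understates the ratio of such low levels. It was counted in 46 of 1285 S2 nuclei, 6 of 1528 S1 nuclei and 1 of 2241 S3 nuclei. The reads of this protocol keep their strand, but the methods used here do not state how the counting treated reads past a gene's 3′ end.

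Tnr encodes tenascin-R, the protein that ties lecticans into a net. It had a count in nearly all skeletal nuclei. Its S2 levels were 1111, 577 and 1141 CPM in cervical replicates 1 to 3, 1161, 682 and 783 CPM in thoracic and 1095, 713 and 1143 CPM in lumbar/sacral libraries. S1 ran from 546 to 915 CPM and S3 from 440 to 769 CPM, so all ranges overlapped, but within libraries S2 was above S1 in 8 of 9 and above S3 in 9 of 9, and S1 was above S3 in 9 of 9. The differences were small beside those of Acan: 0.30 on the log2 scale for S2 against S1 (SE 0.0661, limma adjusted p = 0.00101), 0.58 for S2 against S3 (limma adjusted p = 9.66e-08) and 0.27 for S1 against S3 (limma adjusted p = 0.00278). All 3 passed the p threshold and none reached the size of a call. Replicate 2 libraries had the lowest Tnr level of each region in all 3 clusters. Without the library labelled cervical replicate 2 the S2 mean was 979 ± 212 CPM, and S2 differed from S1 by 0.36 (limma adjusted p = 4.51e-06) and from S3 by 0.64 (limma adjusted p = 1.04e-10).

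Has3 encodes a synthase that extrudes hyaluronan through the cell membrane. Its S2 levels were 13.2, 1.96 and 6.04 CPM in cervical replicates 1 to 3, 14.3, 7.95 and 17.6 CPM in thoracic and 11.8, 9.54 and 9.93 CPM in lumbar/sacral libraries. S1 ran from 1.42 to 8.38 CPM and S3 from 2.08 to 9.67 CPM, so that 5 of the 9 S2 values lay above both ranges. The S2 mean was 10.3 ± 4.66 CPM (SD, n = 9), against 4.85 ± 2.23 CPM in S1 and 5.88 ± 2.71 CPM in S3, with S2 higher in 8 and 7 of 9 libraries, and 11.3 ± 3.71 CPM in S2 without the library labelled cervical replicate 2. The log2 difference from S1 was 0.60 (SE 0.206, limma adjusted p = 0.0339) and that from S3 was 0.46 (SE 0.206, limma adjusted p = 0.0982). Without that library they were 0.76 and 0.65 (limma adjusted p = 0.000885 and 0.00318). Like Acan, Has3 entered the fit through S2 sums alone, and with no minimum its adjusted p against S1 was 0.0685 by limma.

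Of the 9 genes, 6 passed the minimum in the skeletal fit. Between S2 and S1, 1 of 6 was called higher and 0 lower, where 5.23% of the 11465 genes were called either way, 3.24% higher and 2% lower. On the adjusted p alone, 4 of 6 passed, against 25.4% of all genes. Between S2 and S3, 0 of 6 were called, where 8.12% of genes were called, 4.83% higher and 3.29% lower, while 2 of 6 passed the adjusted p alone against 31.1%. Between S1 and S3, 1 of 6 was called against 5.33%, and 2 of 6 passed the adjusted p alone against 19.8%. A single gene accounted for each call, and with 6 genes tested these counts are no result about the list. Acan and Has3 were tested only because S2 carried them. The number of genes with a limma p under 0.05 before adjustment was 4 of the 6 for S2 against S1, 4 for S2 against S3 and 2 for S1 against S3, beside 3912, 4433 and 3151 of all 11465 genes.

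**Figure D2:**
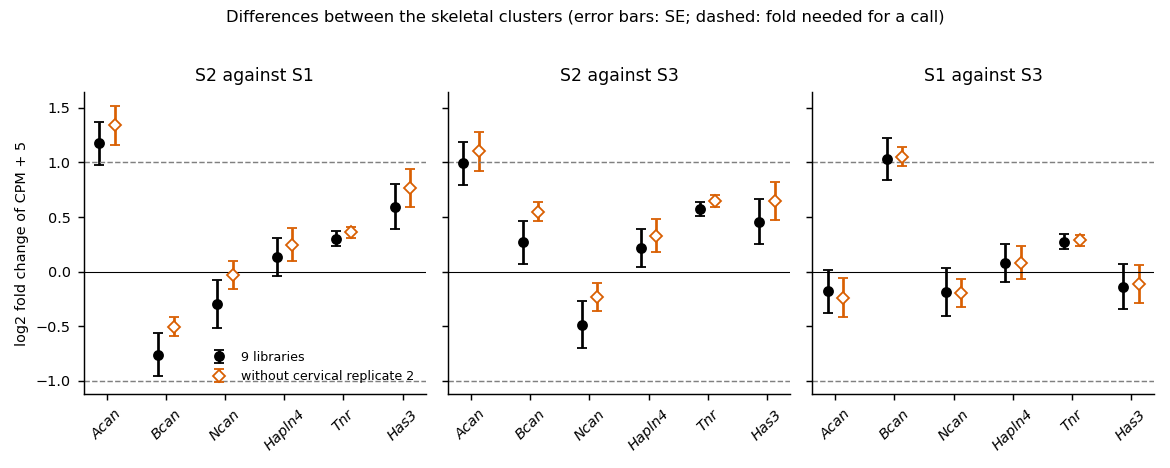
Log2 differences in CPM + 5 of the 6 tested perineuronal net genes between S2 and S1, S2 and S3, and S1 and S3, with standard errors from limma over 9 libraries (black) and without the library labelled cervical replicate 2 (open diamonds). Dashed lines mark a log2 difference of 1 either way. Acan lies at 1.17 and 0.99 above S1 and S3, Bcan at -0.76 and 0.27, and Tnr at 0.30 and 0.58.

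Across the 21 clusters, each gene had its own pattern, given here as a description. For Acan the mean of S2 was above that of all 20 other clusters by more than the SD of the within-library difference, and S2 and its next neighbour S3 were the only neighbours in the order of levels that differed beyond that spread. The interneuron cluster I7 followed at 3.61 CPM, and visceral clusters lay between 0 and 1.33 CPM. Acan had a count in 167 of 1285 S2 nuclei, or 13% (Wilson 95% interval 11.3 to 14.9%), at a median total of 7494 per nucleus. It had none in 722 V3 nuclei with a median total of 7159, which allows a share of up to 0.416%, nor in 247 V9 or 329 I8 nuclei. Intervals and limits cover counting error alone. In S1 and S3 the shares were 2.55% and 3.12%, and in the visceral and interneuron clusters they ran from 0 to 2.5%.

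**Figure D3:**
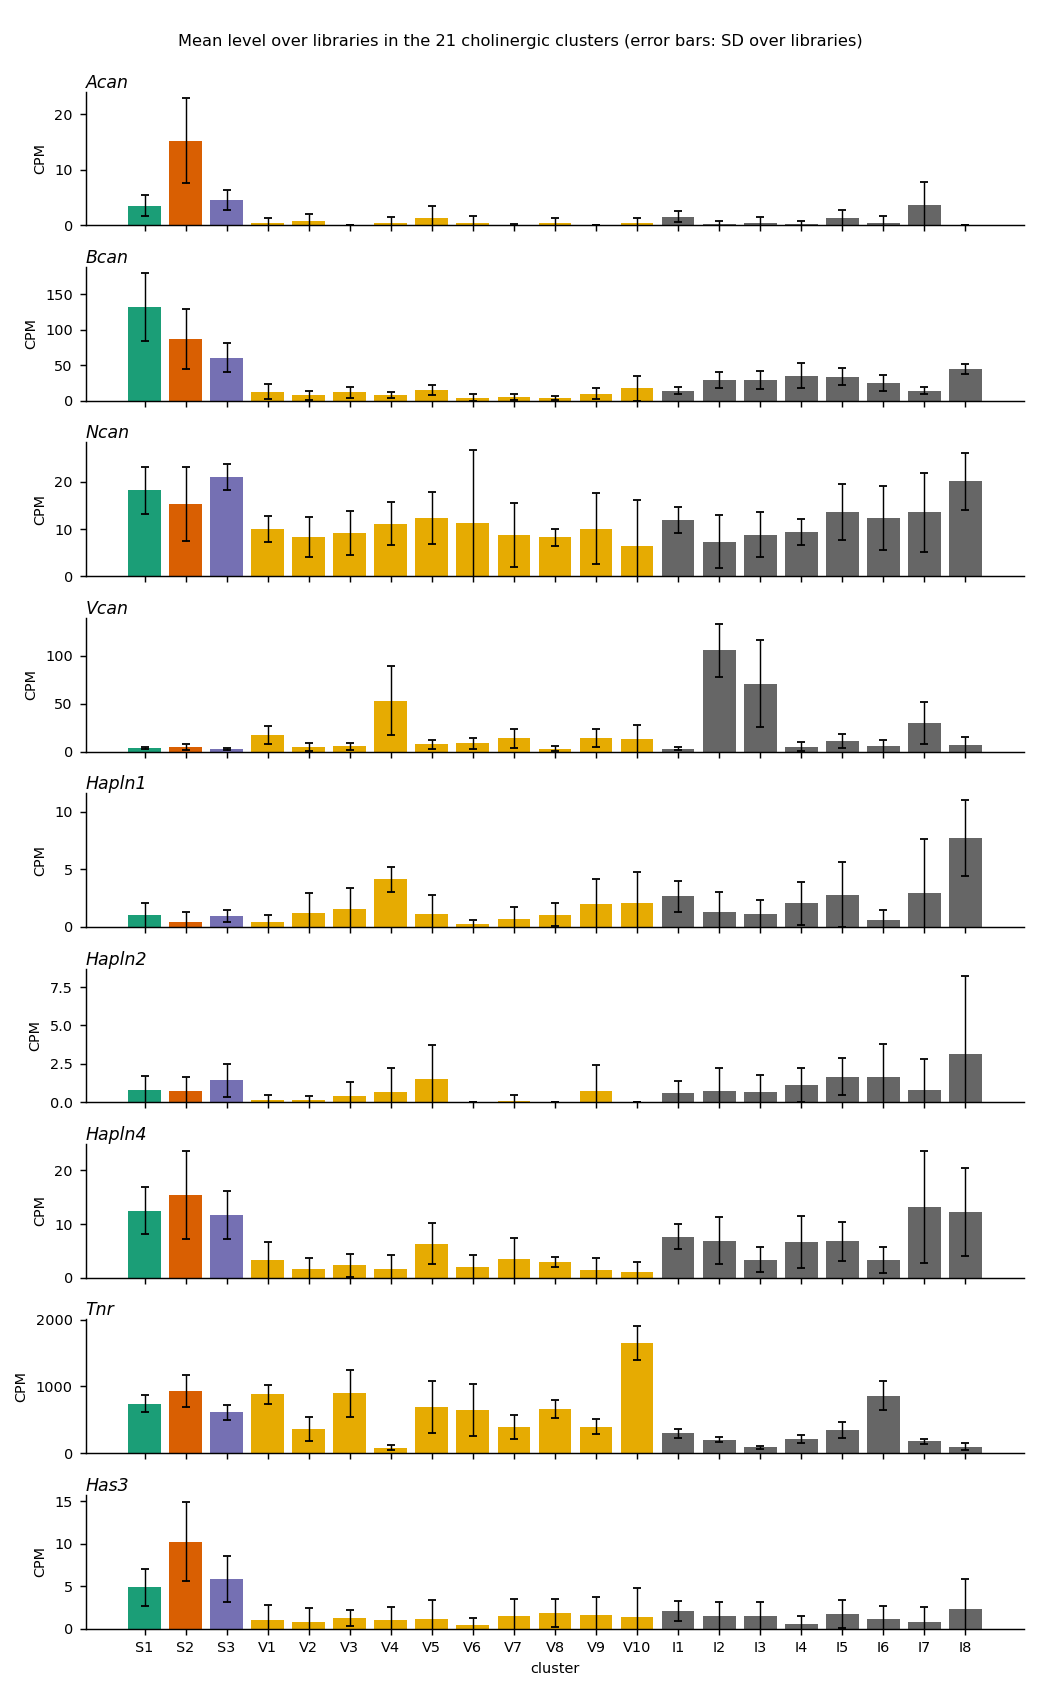
Mean CPM of each of the 9 genes over libraries in the 21 cholinergic clusters (S skeletal, V visceral, I interneuron), with error bars (SD, cut at 0) over libraries holding at least 10 nuclei of the cluster. Acan and Has3 peak in S2 (15.2 and 10.3 CPM), Bcan in the skeletal clusters, Tnr in V10 (1654 CPM) and Vcan in I2 (106 CPM).

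Has3 had a similar outline at a lower contrast. S2 led at 10.3 CPM, followed by S3 at 5.88 and S1 at 4.85 CPM, and every visceral or interneuron cluster was at 2.34 CPM or less. S2 was above 18 of 20 clusters beyond the spread of the within-library differences, S1 and S3 being the exceptions. No pair of neighbours in the order differed beyond that spread. Bcan also set the skeletal clusters apart: S3, the lowest of the 3, was at 61.0 CPM, above I8 at 44.4 CPM, while interneuron clusters ran from 14.4 to 44.4 CPM and visceral clusters from 4.15 to 17.4 CPM. Of the 20 neighbours in the Bcan order, 2 pairs differed beyond the spread. For Hapln4 S2 led at 15.4 CPM, but I7 (13.2), S1 (12.5), I8 (12.3) and S3 (11.7 CPM) followed with no pair of neighbours differing beyond the spread, and S2 was above 12 of 20 clusters.

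Tnr varied most between visceral clusters. V10 had the highest mean, at 1654 CPM, and V4 the lowest of all clusters, at 81.5 CPM. S2 was second at 934 CPM, above 14 clusters and below V10 beyond the spread, with V3 (897), V1 (880) and I6 (864 CPM) close behind it. Vcan had another pattern, highest in the interneuron clusters I2 (106 ± 27.3 CPM) and I3 (70.9 ± 45.5 CPM) and in V4 (53.4 ± 35.7 CPM), with a count in 338 of 780 I2 nuclei, 43.3%, and in 50 of 1285 S2 nuclei, 3.89%. The clusters with the lowest Tnr, V4 and I3, were thus among the 3 with the highest Vcan. I8 was also low in Tnr, 881 CPM below S2, but its Vcan did not differ from that of S2 beyond the spread. Over the 21 clusters Vcan and Tnr had Pearson r = -0.55 and Spearman rho = -0.35 on log2(CPM + 5). Ncan ran only from 6.48 CPM in V10 to 21.1 CPM in S3, and no neighbours differed beyond the spread. Hapln1 was highest in I8, at 7.70 ± 3.29 CPM, and Hapln2 in I8 too, at 3.15 ± 5.05 CPM, an SD larger than the mean.

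The same contrast was tested between the 3 classes, with the nuclei of each class summed within each library and 11292 genes fitted. The skeletal class averaged 87.6 ± 34.0 CPM of Bcan (SD, n = 9), the interneurons 26.5 ± 8.62 CPM and the visceral class 8.97 ± 4.82 CPM, and the skeletal and visceral ranges, 26.3 to 137 and 3.95 to 19.9 CPM, did not overlap. Acan averaged 7.43 ± 3.36 CPM in the skeletal class, with no library under 3.69 CPM, against at most 1.49 CPM in a visceral and 1.20 CPM in an interneuron sum. Tnr averaged 741 CPM in skeletal, 643 CPM in visceral and 305 CPM in interneuron nuclei. Vcan had the opposite order, at 3.77 CPM in skeletal, 15.1 CPM in visceral and 29.9 CPM in interneuron nuclei.

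Against the visceral class, 4 of the 6 tested genes were called, 3 higher in skeletal nuclei and 1 lower, where 11.8% of genes were called: Bcan by 2.68, Hapln4 by 1.21 and Acan by 1.12 on the log2 scale, and Vcan by -1.12 (limma adjusted p of at most 1.17e-06). Ncan was higher by 0.65 (limma adjusted p = 2.21e-08), short of the size, and Tnr by 0.24 (limma adjusted p = 0.0619). Against interneurons, 4 of 6 were called, where 10.7% of genes were called: Bcan by 1.49, Tnr by 1.25, Acan by 1.04 and Vcan by -1.96 (limma adjusted p of at most 2.2e-08). Between visceral nuclei and interneurons, 2 of 6 were called against 7.75% of genes, Tnr by 1.01 and Bcan by -1.19 (limma adjusted p = 1.23e-07 and 2.92e-09). The minimum of 10 CPM was met only by skeletal sums for Acan and Hapln4 and only by visceral or interneuron sums for Vcan, so these 3 were tested because the classes differed, and the counts of calls are no support. Acan gave no class value in 5 of 12 sets with libraries left out. Has3 did not reach the minimum in these sums. With none applied its skeletal sums were above the visceral by 0.89 and above the interneuron sums by 0.82 (limma adjusted p = 7.14e-08 and 2.74e-07).

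Shares of nuclei with at least 1 corrected count gave the same picture nucleus by nucleus. Acan was counted in 11.4 ± 7.26% of S2 nuclei (mean ± SD over 9 libraries), from 1.41% in the library labelled cervical replicate 2 to 25% in thoracic replicate 1, against 3.07 ± 2.51% of S1 and 3.51 ± 1.08% of S3 nuclei. Behind the lowest value stood 1 of 71 nuclei in the library labelled cervical replicate 2, and behind the 7.69% of thoracic replicate 3 stood 2 of 26, so single libraries are coarse. Bcan was counted in 66.8 ± 12.3% of S1, 48.8 ± 22.0% of S2 and 38.2 ± 8.18% of S3 nuclei. Tnr was counted in 98.6, 99.6 and 97.9% of S1, S2 and S3 nuclei, and Has3 in 4.29, 8.27 and 4.98%. After each nucleus was thinned to 4600 corrected counts, leaving out the 8.63% of nuclei below that depth, Acan was in 7.12% of S2 against 1.82% of S1 and 1.72% of S3 nuclei, Bcan in 46.1, 34.7 and 24.6% of S1, S2 and S3 nuclei, and Has3 in 2.12, 4.75 and 2.71%. All nuclei left out came from lumbar/sacral replicate 1 (44.1% of its nuclei) and lumbar/sacral replicate 3 (13.6%).

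Shares were compared by flipping the signs of the within-library differences in every possible way (an exact test, two-sided, with a smallest possible p of 0.00391), for 27 combinations of gene and cluster pair. The flips took the 9 libraries as independent, though those of the same replicate number came from the same mice. Unadjusted, the Acan share gave exact p = 0.00781 for S2 against S3 (higher in 8 of 9 libraries) and exact p = 0.0234 against S1 (8 of 9). The Bcan share gave exact p = 0.00391 for S1 against S3 (9 of 9) and exact p = 0.00781 for S2 against S1 (lower in 8 of 9). Has3 gave exact p = 0.129 for S2 against S1 and exact p = 0.191 against S3. No pair passed 0.05 once adjusted over the 27. Without the library labelled cervical replicate 2, S2 was above S1 and above S3 in 8 of 8 libraries for Acan and above S1 in 8 of 8 for Has3, each at exact p = 0.00781, the smallest that 8 libraries allow, and S2 was above S3 in 8 of 8 for Bcan at the same exact p. Leaving it out was not planned for the shares. In each of these pairs it was the library that went the other way, so these p-values are no independent support.

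**Figure D4:**
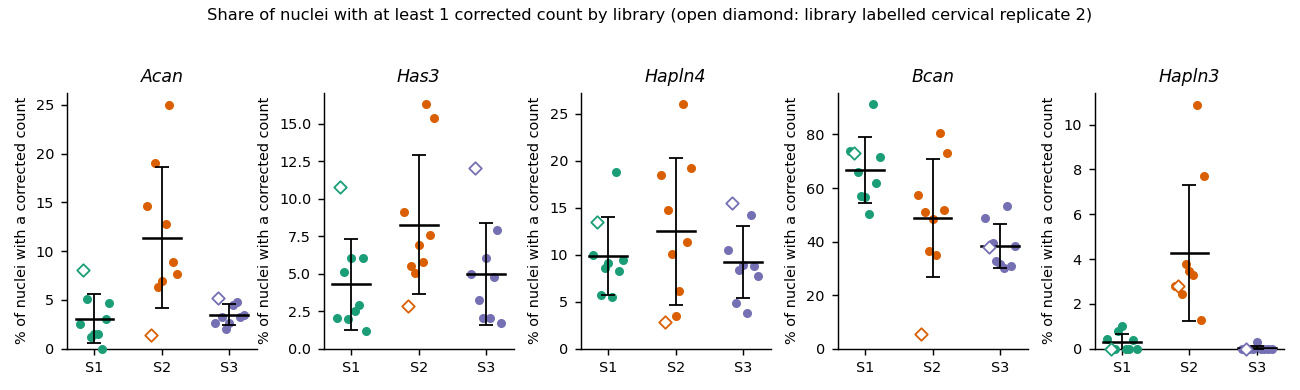
Percent of S1, S2 and S3 nuclei with at least 1 corrected count of Acan, Has3, Hapln4, Bcan or Hapln3, with 1 point per library, a line at the mean and the SD as error bars (cut at 0). Open diamonds mark the library labelled cervical replicate 2, where 1.41% of S2 nuclei had Acan against 6.29 to 25% elsewhere.

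A mean of 2.03 of the 9 genes was counted in an S1 nucleus, 1.97 in an S2 nucleus and 1.74 in an S3 nucleus, and the most in any 1 nucleus was 5. At least 2 were counted in 76.8% of S1, 64.9% of S2 and 56.9% of S3 nuclei, and at least 3 in 22.7, 25.6 and 15.3%. With Tnr left aside, 23.0 ± 11.3% of S1, 25.6 ± 16.7% of S2 and 15.6 ± 6.40% of S3 nuclei had at least 2 (SD over 9 libraries). In S2, Acan and Bcan were counted together in 6.26% of nuclei, close to the 6.52% that the product of their shares gives, and the same held for Acan with Has3 (1.16 and 1.10%). Acan and Hapln4 were together in 2.61% against a product of 1.80%, above it in 6 of 9 libraries, and Acan and Ncan in 0.723% against 1.52%. Within S2, the Acan share was 14.0% in nuclei with the alpha marker Rbfox3 and 5.85% in those without (higher in 7 of 8 libraries), and 12.5% and 2.38% with and without Sv2b (5 of 6 libraries). With and without Glis3 the shares were 16.1% and 10.5% (5 of 7), and with and without Stk32a 9.90% and 9.05% (3 of 7). Gamma markers went both ways. The Acan share was 22.7% with and 13.2% without Nrp2 (4 of 5), 11.6% and 7.22% for Gfra1 (3 of 3), 8.51% and 15.3% for Plekhg1 (2 of 6), and 12.8% and 27.3% for Esrrg (0 of 2). For the Type 3 markers it was 8.36% and 14.7% for Gpr149 (1 of 8) and 10.1% and 14.7% for Rreb1 (2 of 8). Bcan shares in S2 went both ways. With and without each alpha marker they were 53.2% and 56.9% for Rbfox3 (higher in 3 of 8 libraries) and 46.2% and 44.5% for Sv2b (4 of 6). They were 45.6% and 55.9% for Glis3 (1 of 7) and 41.7% and 38.9% for Stk32a (4 of 7). For the Type 3 markers they were 57.0% and 51.8% for Gpr149 (5 of 8) and 60.0% and 47.3% for Rreb1 (6 of 8). These are descriptions, and nuclei with and without a marker were not matched for their totals.

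Along the cord no difference between regions passed the test for any of these genes. In S2, Acan averaged 16.4 CPM in cervical, 14.0 CPM in thoracic and 15.3 CPM in lumbar/sacral libraries, and Bcan 62.6, 116 and 83.0 CPM, with the low cervical mean resting on 3.93 CPM in the library labelled cervical replicate 2. In the limma fits 0 of the 6 genes tested in S2 and 0 of the 4 tested in S1 and in S3 were called in any of the 3 regional comparisons, and 0 had a p under 0.05 before adjustment. The share of all genes called was 0% in S1 and S2 and 0% for S3 thoracic against cervical, 0.0305% for S3 lumbar/sacral against cervical and 0.0406% for S3 lumbar/sacral against thoracic. Of 10387 genes in S2, 882, 834 and 150 had an unadjusted p under 0.05 for thoracic against cervical, lumbar/sacral against cervical and lumbar/sacral against thoracic. The differences of S2 from S1 and from S3 were also compared between regions, with 0 genes and 0 of the 6 members called (0% of 11465). The smallest member p was 0.0121 before limma's adjustment and 0.764 after it, for Bcan S2 minus S3 in thoracic against cervical libraries, a log2 difference of 1.31. The regional libraries include the pair that goes against its labels.

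Genes whose cluster means followed those of a member most closely are named as a description, by the 3 highest Pearson correlations over the 21 clusters of log2(CPM + 5). For Acan they were Aox1 (r = 0.93), Pacsin3 (0.92) and Vti1a (0.92), and for Has3 the transcription factor Lhx4 (0.94), the calcium channel Itpr3 (0.93) and Mecom (0.93). Bcan was followed by Abhd3 (0.94), the potassium channel Kcna2 (0.93) and the sialyltransferase St8sia5 (0.93), and Hapln4 by Aifm3 (0.91) and Lgmn (0.91). Tnr (Pip5k1bos at 0.82), Ncan (Ltbp3 at 0.84), Hapln1 (Trim62 at 0.79) and Vcan (Piezo1 at 0.73) had looser companions. Among the members themselves, Acan and Has3 had r = 0.88 with Spearman rho = 0.28, with both highest in S2, and Bcan and Hapln4 had r = 0.78 and rho = 0.79. Neighbouring genes did not follow 1 pattern: Hapln4 and Ncan had r = 0.76 (rho = 0.72), Hapln2 and Bcan r = 0.64 (rho = 0.84), Hapln3 and Acan r = 0.78 (rho = 0.43) and Hapln1 and Vcan r = 0.06 (rho = 0.14). The points share libraries, from 3 to 9 a cluster.

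Genes that make, sulfate, bind or cut net components were followed as 6 lists. Their counts stand beside 3.24% of all genes called higher and 2% lower in S2 than in S1, and 4.83% and 3.29% against S3, and in lists this short a single call is no result about a list. Among 6 tested genes of other matrix partners (18 listed), 0 were called between S2 and S1, and 3 were called higher in S2 than in S3, with a list median of 1.53 on the log2 scale against 0.01 over all genes. These were Crtac1, a secreted cartilage and brain protein also known as an antagonist of the Nogo receptor (288 ± 48.2 CPM in S2, 18.0 ± 6.64 CPM in S3), Ptprz1, a receptor phosphatase whose secreted form is the proteoglycan phosphacan (177 ± 47.3 and 11.7 ± 5.43 CPM), and Sema3a, a guidance cue that binds net chondroitin sulfate (187 ± 72.1 and 18.5 ± 8.59 CPM). Their log2 differences were 3.71, 3.46 and 3.02 (limma adjusted p of at most 3.45e-15), and their S1 means were 335, 154 and 114 CPM. S2 and S3 did not overlap for any of the 3. Of 4 tested genes of hyaluronan synthesis, receptors and breakdown (14 listed), 0 were called in either comparison, with medians of -0.05 and -0.11.

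Enzymes of chondroitin sulfate were called in both directions. Of 10 tested genes of chain synthesis (11 listed), 2 were higher and 1 lower in S2 than in S1, and 1 was higher and 1 lower than in S3. Csgalnact1, which starts chondroitin chains, averaged 92.1 ± 49.2 CPM in S2, 14.0 ± 3.33 CPM in S1 and 20.04 ± 4.72 CPM in S3, with log2 differences of 2.14 and 1.75. Xylt1, which adds the first sugar of the linker, went the other way, at 39.9 ± 36.9 CPM in S2, 70.8 ± 15.4 CPM in S1 and 221.7 ± 31.8 CPM in S3, with log2 differences of -1.15 and -2.75. The chain polymerase Chsy3 was higher in S2 than in S1 by 1.17, at 396 ± 118 against 172 ± 50.0 CPM, but its highest mean was in S3, at 504 ± 98.7 CPM. The list medians were 0.02 and -0.12. Of 5 tested genes of sulfation (10 listed), 1 was higher in S2 than in S1 (the uronyl 2-O-sulfotransferase Ust, 1.07) and 1 higher than in S3 (the 4-O-sulfotransferase Chst11, 1.17), with medians of 0.61 and 0.47.

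Of 8 tested proteases and inhibitors (17 listed), 1 was called lower in S2 than in S1 and 1 lower than in S3, both Timp3, an inhibitor of lectican-cutting proteases, at 65.2 ± 38.8 CPM in S2, 121 ± 27.1 CPM in S1 and 166.5 ± 34.6 CPM in S3 (log2 differences of -1.03 and -1.47). The aggrecan-cutting protease Adamts5 was higher in S2 than in S3 by 1.63, at 15.4 ± 8.33 against 1.01 ± 0.611 CPM, with 13.2 ± 3.68 CPM in S1. Of 10 tested receptors (13 listed), 1 was higher and 1 lower in S2 than in S1 and 1 was higher than in S3. Ptprd, of the family of receptor phosphatases that bind chondroitin and heparan sulfate, was the one higher in both, at 2920 ± 795 CPM in S2, 462 ± 219 CPM in S1 and 871 ± 253 CPM in S3 (log2 differences of 2.75 and 1.74), and Rtn4rl1, a Nogo receptor homologue, was lower than in S1 by -1.35. Every call named for the 6 lists had a limma adjusted p of at most 0.00128 and was also called without the library labelled cervical replicate 2. The 3 comparisons among S1, S2 and S3 share their clusters, so their counts are not independent.

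**Figure D5:**
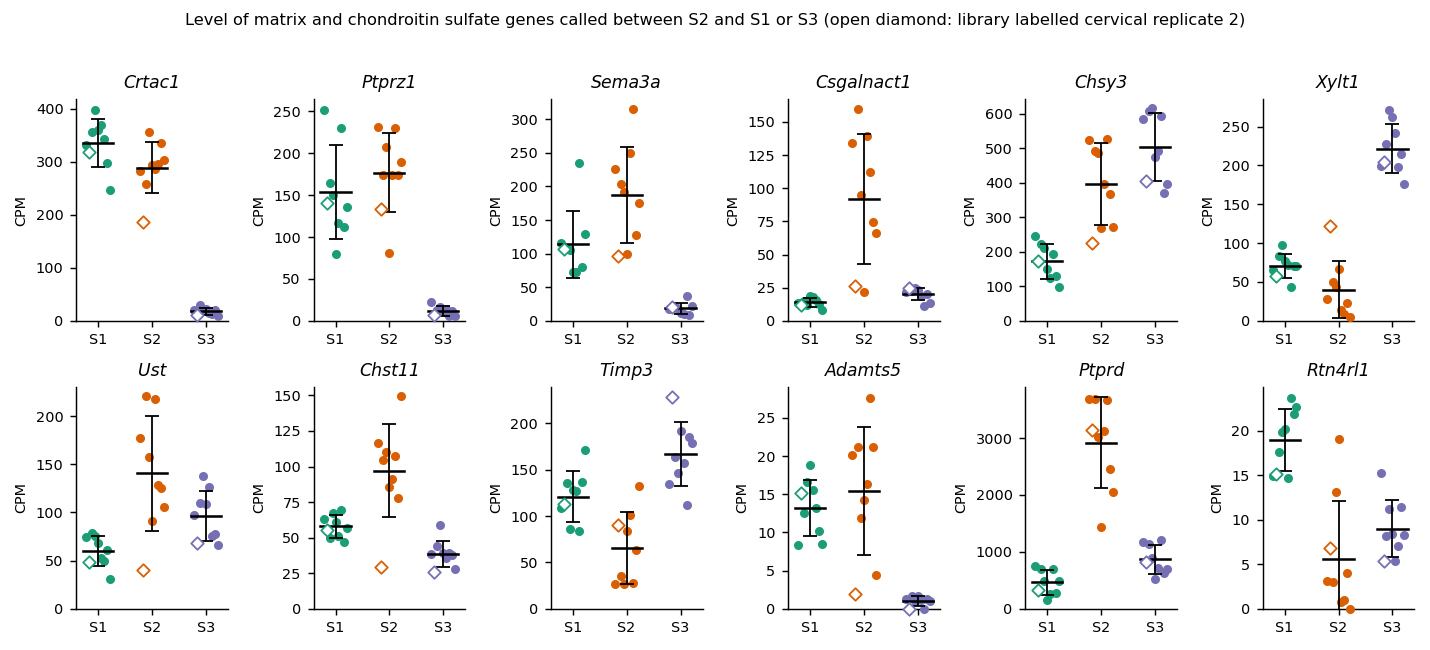
CPM of the 12 genes of the related lists called between S2 and S1 or S3, with 1 point per library on linear axes from 0, a line at the mean and the SD as error bars (cut at 0). Open diamonds mark the library labelled cervical replicate 2. Crtac1, Ptprz1 and Sema3a separate S1 and S2 from S3, Csgalnact1 and Ptprd are highest in S2, and Xylt1 and Timp3 have their lowest means in S2.

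Glial transcripts moved with some of these groups. The 11 oligodendrocyte markers summed to a mean of 133 CPM in S1 (92.0 to 146), 126 CPM in S2 (71.6 to 163) and 86.9 CPM in S3 (65.0 to 113), mostly Mbp, which averaged 88.3, 89.3 and 24.1 CPM. The 9 astrocyte markers summed to 39.4 CPM in S1 (32.1 to 47.0), 30.6 CPM in S2 (17.7 to 39.6) and 19.3 CPM in S3 (12.3 to 31.2), mostly Slc1a2 (28.3, 24.1 and 15.4 CPM) and, in S1, Slc7a10 (8.47 CPM). Aqp4, Slc1a3 and Aldh1l1 were highest in S2, with Agt at 0 in all S2 libraries and Fgfr3 at 0 in all S1 libraries. The 5 precursor markers in the matrix summed to about 2.11, 1.91 and 2.01 CPM, with Sox10 at 0 in S2 and Olig2 at 0 in S3, and the 5 microglial markers to 43.5, 44.5 and 49.0 CPM. Their part in the results was not tested as a whole. Leaving out the 2.38% of nuclei with Mog or Mag gave Acan differences of 1.21 from S1 and 0.999 from S3, Bcan differences of -0.77 and 0.26, and an S1 to S3 difference of 1.03 for Bcan, which is as large as with them.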

How the data were processed

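Nuclei sorted for the fluorescent tag were profiled in 9 libraries of 3' single nucleus RNA sequencing. Alignment by the authors used a mm10 reference with introns and Cell Ranger 3.1.0, and their normalization used SCTransform in Seurat. The authors deposited a matrix with an annotation of clusters, and its whole numbers were taken here, from their values, to be a model score, the corrected counts of SCTransform made by the authors. The study's methods do not state this, and no count model was used. Corrected counts were summed by library and cluster (at least 10 nuclei), scaled to CPM, and log2(CPM + 5) was fitted by limma 3.58.1 (R 4.3.3). The fit was tested on simulated data. The genes changed there had higher mean levels than Acan, Ncan, Hapln4 and Has3, so that test does not cover these 4 genes. Genes at 10 CPM in at least 3 sums were tested, with Benjamini-Hochberg adjustment over all of them. Library was a term between clusters and classes, and libraries stood as replicates. Shares were compared by exact sign-flip tests. Same-numbered libraries came from the same set of mice, and their deviations correlated between -0.22 and 0.833. The 9 genes, the related lists and the marker lists were chosen with earlier results of these data known. By rule, all 9 genes were named, with at most 4 called genes a list and comparison, and genes out of the 3 most alike for each, some of which are not reported here. Alternatives were another pseudocount, filter and scaling, thinned nuclei, nuclei without Mog or Mag, left-out libraries and the set of mice as a block. Doublets were not called here. Sequences came from RefSeq on GRCm38.p6, where 8 of the 10 genes had an entry. Amino acid sequences were not used here.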

Additional observations from a re-analysis of the deposited data

Results flagged for a closer look

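Of the 27 sets of 9 library levels (9 genes in 3 skeletal clusters), 2 had a highest library that stood apart from the rest by Dixon's ratio (gap to the nearest library over the range above its 95% critical value), and chance gives about 1 in 20 such sets. Acan in S3 was highest in lumbar/sacral replicate 3, at 9.0 CPM, with the next library at 5.86 CPM (ratio 0.543). Hapln1 in S2 was highest in lumbar/sacral replicate 2, at 2.38 CPM, with the next at 1.21 CPM (ratio 0.4932), in a gene counted in 5 S2 nuclei.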

How the results depend on the processing

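Acan and Bcan lay close to the size of a call, a log2 difference of 1. For S2 against S1 the number called went from 1 to 0 with a pseudocount of 20 and with the strict filter. It ranged from 0 to 1 over left-out libraries and replicates. The strict filter asked for at least 10 corrected counts in every sum. In the skeletal fits Acan and Bcan fell short of that and were not tested. In the class fits the same held for Acan, Vcan and Hapln4. For S2 against S3 the number called went from 0 to 1 with a pseudocount of 1, with thinned nuclei and without both replicate 2 libraries labelled cervical and thoracic (chosen after seeing the data), and ranged from 0 to 1 over left-out libraries. For S1 against S3 the number called went from 1 to 0 with a pseudocount of 20, the strict filter and median of ratios scaling, with 0 to 1 over left-out libraries (0 without thoracic replicate 1). Skeletal against visceral went from 4 to 1 with a pseudocount of 20 and the strict filter (2 to 4 over left-out libraries), skeletal against interneuron from 4 to 2 with the strict filter (3 to 4), and visceral against interneuron from 2 to 4 with a pseudocount of 1, 0 with 20, and 1 with median of ratios and without both replicate 2 libraries (1 to 3). In shares, 0 genes passed in each pair, 1 in each pair when at least 2 corrected counts were required, and 2, 2 and 1 for S2 against S1, S2 against S3 and S1 against S3 without the library labelled cervical replicate 2 (not planned for the shares). The sign turned for differences under the threshold with all libraries: Hapln4 in S2 against S1 and S3, -0.067 and -0.046 without replicate 3 (highest 0.44 and 0.56, limma adjusted p = 0.0164 and 0.00268, without replicate 2), Acan and Hapln4 in S1 against S3, 0.0078 and -0.066 with thinned nuclei, the Has3 share in S2 against S3, -0.305 points with at least 2 counts, and the Acan share in S1 against S3, 0.102 points thinned, 0.0038 points with at least 2 counts and 0.297 points without replicate 1 (-0.936 to 0.297 over left-out replicates). Across the settings run, the Acan difference ranged from 0.55 to 1.83 for S2 against S1 (limma adjusted p at most 0.00384) and from 0.49 to 1.42 for S2 against S3 (at most 0.0119). The Bcan difference for S2 against S1 ranged from -0.91 to -0.50. Ncan in S2 against S3 ranged from -0.77 to -0.21 over the settings, with the lowest limma adjusted p (0.0329) in thinned nuclei. Apart from genes that a filter left untested, the cause of these moves was not tested.

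With the replicate block, which pairs libraries by set of mice, 0 members were called in each regional comparison of S1, S2 and S3, as without the block. The block moved the count of all genes called from 0 to 16 and 5 for S1 lumbar/sacral against cervical and against thoracic, from 0 to 1 for S2 thoracic against cervical, from 3 to 6 for S3 lumbar/sacral against cervical and from 4 to 8 for S3 lumbar/sacral against thoracic. Vcan, Hapln1 and Hapln2 were too low in skeletal nuclei to be tested.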
